A study of Mus musculus with 6 samples.

Results

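The Z-disc, the M-line and the titin filament were followed through 9 genes in cardiomyocytes (CMs) with forced expression of SRF. The genes were listed by their known place in the sarcomere: Ttn, Actn2, Nebl, Ldb3, Tcap, Myoz2, Nexn, Myom1 and Myom2. All 9 were among the 23337 genes of the table. Wild-type mice received, on postnatal day 1 (P1), an adeno-associated virus of serotype 9 at 5e+08 viral genomes per g, carrying either SRF joined to GFP by a 2A peptide (SRF-OE) or GFP alone (GFP), and GFP+ CMs were sorted at P14. Both vectors were driven by the cardiac troponin T promoter, so expression was directed to CMs, and the dose transduced only some CMs of each heart. RNA-seq was run on 3 labelled libraries per group, described by the submitters as biological replicates.

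The column named for SRF-OE replicate 1 held gene lengths in place of counts, so 5 libraries entered the analysis, 2 of SRF-OE and 3 of GFP, with total counts of 14137433 to 23159631. The first column, headed Chr, held gene symbols, so that name did not match its content either. Whether the other column names were displaced as well was not tested. If they had moved by 1 column, the library labelled GFP1 would be one of SRF-OE, and the comparison without it would keep its groups. Srf, the gene on the vector, was at 360 and 748 CPM (counts per 1000000 counts of a library, scaled with edgeR's TMM factors) in SRF-OE 2 and SRF-OE 3, and at 67.3 and 85.1 CPM in GFP 2 and GFP 3. In the library labelled GFP1 it was at 338 CPM, against its label. Reads of the vector and of the mouse gene cannot be told apart in these counts. The Srf log2 fold change was 1.76 (SE 0.71, adjusted p = 0.36 in the quasi-likelihood test of edgeR, adjusted by Benjamini-Hochberg) over 5 libraries and 2.87 (SE 0.37, adjusted p = 0.044) without the library labelled GFP1. Fits are therefore given both with that library and without it.

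The sarcomere is the contractile unit of striated muscle. Its borders are the Z-discs, where the actin filaments of neighbouring sarcomeres are anchored and crosslinked, and its centre is the M-line, where the myosin filaments are held in register. Titin, a single giant protein, runs from the Z-disc to the M-line and gives the sarcomere its elasticity and its template. SRF is a transcription factor that binds DNA sequences known as CArG boxes and is known to control many genes of the actin cytoskeleton and of the sarcomere.

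The promoters of the members are shown first, because the comparison concerns a factor that reads DNA sequence. RefSeq start sites on GRCm38.p6 gave windows of 250 bases before to 50 bases after the start for 6 of the 9 members, in 10 windows. The search was made with the consensus CArG box, known for SRF, and with the consensus MEF2 box, known for the muscle factor MEF2. Both motifs read as the same consensus on both strands and do not overlap in the windows shown. Capitals mark the match and nothing else. A CArG box was held by 1.63% of 32851 windows of all genes, and a MEF2 box by 0.557%. Counted per gene, the shares were 1.81% and 0.636% of 27025 genes. Among the members, CArG boxes were found for Ldb3, Nebl and Myom1.
Ldb3, chr14:34588632-34588931, minus strand: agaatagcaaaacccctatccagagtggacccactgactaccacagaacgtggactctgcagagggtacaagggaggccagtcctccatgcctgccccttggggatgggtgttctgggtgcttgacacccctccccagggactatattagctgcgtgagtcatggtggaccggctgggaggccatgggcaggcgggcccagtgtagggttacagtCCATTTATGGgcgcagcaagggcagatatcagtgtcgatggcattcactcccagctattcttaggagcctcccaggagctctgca
Nebl, chr2:17462807-17463106, minus strand: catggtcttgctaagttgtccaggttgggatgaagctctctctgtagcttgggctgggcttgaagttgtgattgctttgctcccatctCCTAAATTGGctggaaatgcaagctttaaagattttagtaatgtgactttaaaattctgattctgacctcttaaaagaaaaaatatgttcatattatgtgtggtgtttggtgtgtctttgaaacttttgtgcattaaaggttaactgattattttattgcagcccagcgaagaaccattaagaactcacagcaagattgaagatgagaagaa
Myom1, chr17:71019307-71019606, plus strand: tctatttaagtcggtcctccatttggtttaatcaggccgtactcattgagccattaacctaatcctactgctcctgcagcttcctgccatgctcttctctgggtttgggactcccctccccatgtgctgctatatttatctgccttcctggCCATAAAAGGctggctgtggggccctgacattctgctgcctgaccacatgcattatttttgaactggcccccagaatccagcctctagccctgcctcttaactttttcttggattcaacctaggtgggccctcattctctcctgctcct
The match began 35 bases before the start in Ldb3, 162 bases before it in Nebl and 99 bases before it in Myom1. Ldb3 has another listed start, and the same box began 109 bases before that one. In Nebl it was found at 1 of 4 listed starts, the one farthest downstream within the gene. The MEF2 box was found for Ttn, beginning 166 bases before the start, and for Myoz2, beginning 33 bases before it.
Ttn, chr2:76982498-76982797, minus strand: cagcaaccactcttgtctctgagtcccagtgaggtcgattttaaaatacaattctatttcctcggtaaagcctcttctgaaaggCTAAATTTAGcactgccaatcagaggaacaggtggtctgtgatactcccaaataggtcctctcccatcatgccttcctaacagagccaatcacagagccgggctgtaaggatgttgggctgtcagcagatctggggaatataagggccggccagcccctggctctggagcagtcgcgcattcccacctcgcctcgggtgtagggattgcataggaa
Myoz2, chr3:123034938-123035237, minus strand: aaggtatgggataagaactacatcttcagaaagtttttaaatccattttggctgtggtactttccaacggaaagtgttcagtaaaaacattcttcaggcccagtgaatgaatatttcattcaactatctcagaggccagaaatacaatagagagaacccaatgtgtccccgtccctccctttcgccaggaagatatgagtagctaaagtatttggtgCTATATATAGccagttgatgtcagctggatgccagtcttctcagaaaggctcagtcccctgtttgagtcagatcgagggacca
The Actn2 window held neither motif. These matches describe the letters of the windows and were not tested for binding.

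As a group, the members leaned to lower levels in SRF-OE, but no member passed the test over the 5 libraries as labelled. The log2 fold change (SRF-OE over GFP) was negative for 7 of 9 members and positive for 2, and the median over the members was -0.21 beside 0.030 over the 13754 genes tested. In edgeR's quasi-likelihood test at a Benjamini-Hochberg adjusted p of 0.05, 0 members were higher and 0 lower, as were 0% and 0% of all genes. At an unadjusted p under 0.05, 3 members were lower (Nebl, Myoz2 and Myom1), beside 7.59% of all genes, and 0 were higher, beside 6.35%. DESeq2, whose filter left 1079 genes with an adjusted p and gave none for Nebl, called 1 member lower, Myoz2, beside 19.7% of those genes, and 0 higher, beside 1.02%. The groups did not overlap for 5 members that were lower in both SRF-OE libraries (17.3% of all genes) and for 1 that was higher (16.1% of all genes). The smallest p that an exact permutation test could reach was 0.1 for 2 libraries against 3 and 0.33 for 2 against 2, so none was run on single genes.

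With the library labelled GFP1 left out, the same 7 of 9 log2 fold changes were negative, and Nebl passed the test. The members' median was -0.26 beside 0.035 over the 13397 genes tested. Of the members 1, Nebl, was lower at the adjusted cutoff, where 0.97% of all genes were called lower, and 0 members were higher, where 1.98% were. The unadjusted p was under 0.05 and the level lower for 4 members (14% of all genes). The groups did not overlap for 6 lower members (30.2% of all genes) and 1 higher member (30.8%). In the same libraries DESeq2 called 4 members lower (Nebl, Myoz2, Myom1 and Myom2), beside 6.16% of 13521 genes, and 0 higher, beside 6.31%. Across all genes edgeR's calls were 265 higher and 130 lower, a split that moved to 88 and 9 with upper quartile scaling and to 731 and 61 with library totals only.

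**Figure D1:**
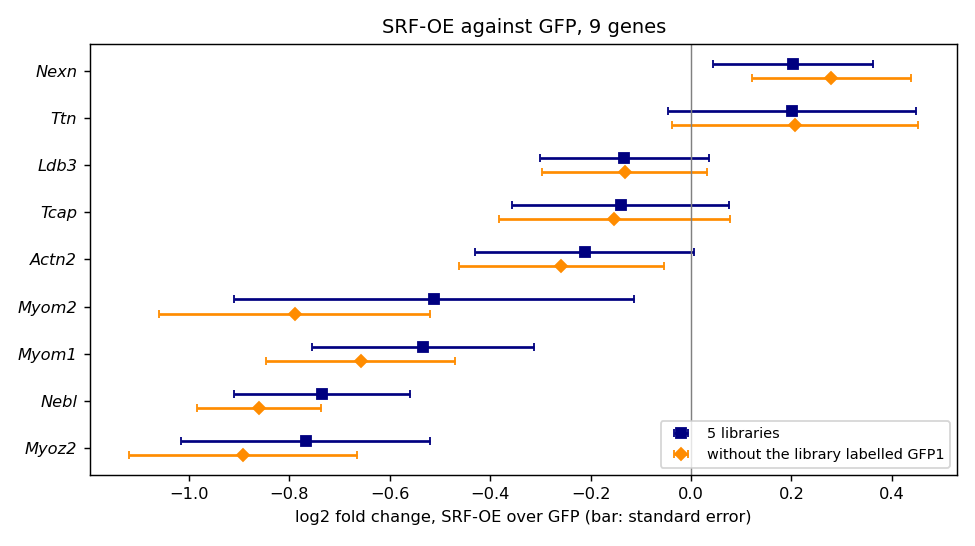
Each of the 9 genes has its log2 fold change, SRF-OE over GFP, on the x axis, with bars for the standard error; squares are the fit of 5 libraries and diamonds the fit without the library labelled GFP1. Myoz2 and Nebl lie farthest to the left (-0.77 and -0.74 over 5 libraries) and Nexn and Ttn lie to the right of 0 (both 0.20), while Ldb3 and Tcap, near 0, changed sign when libraries were scaled by their totals only.

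The direction was read against all genes, because scaling moved the zero point. With library totals only and no TMM factors, the median over all genes was 0.214 in the fit of 5 libraries and 0.262 without the library labelled GFP1. The members' median was then -0.021 and -0.028. Under every scaling tried (TMM, DESeq2's size factors, upper quartile and library totals), 7 members lay below the median of all genes and 2 above it.

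Titin showed no change that passed the test. Ttn (chr2:76703980-76982547, minus strand, GRCm38) encodes the filament that spans the sarcomere from border to centre. Ttn was at 8181 CPM in SRF-OE 2 and 7456 CPM in SRF-OE 3, against 6816, 5752 and 7845 CPM in GFP 1, GFP 2 and GFP 3. The groups overlapped, with SRF-OE 3 below GFP 3. The log2 fold change was 0.20 (SE 0.25, adjusted p = 0.71, edgeR's quasi-likelihood test) over 5 libraries and 0.21 (SE 0.24, adjusted p = 0.61) without the library labelled GFP1. Without GFP 2 as well, it was -0.018. Ttn alone took 0.541% to 0.889% of all counts of a library, and the 9 genes together took 1.65% to 1.97%. Titin is the longest of the members by far. The 291 tested genes of 10000 bp or more had a median log2 fold change of 0.086 over 5 libraries and 0.035 without the library labelled GFP1, and any part of length in the Ttn value was not tested.

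Of the Z-disc members, Nebl had the smallest unadjusted p. Nebl (chr2:17343909-17731464, minus strand) encodes nebulette, the cardiac member of the nebulin family, which binds actin at the Z-disc, and the locus also encodes a shorter LIM protein. Its level was 85.8 and 74.9 CPM in SRF-OE 2 and SRF-OE 3, against 108.5, 150.0 and 142.8 CPM in GFP 1, GFP 2 and GFP 3. Both SRF-OE libraries lay below all GFP libraries, and the library labelled GFP1 lay midway between the means of the other groups on the log2 scale (0.50, where 0 is the mean of GFP 2 and GFP 3 and 1 that of SRF-OE). For SRF-OE over GFP, the log2 fold change was -0.74 (SE 0.17, unadjusted p = 0.0047, adjusted p = 0.35 with edgeR) over 5 libraries. Without the library labelled GFP1, Nebl fell by 0.86 on the log2 scale (SE 0.12, adjusted p = 0.047). Without that library, the call was kept with DESeq2 (adjusted p = 0.00024). It was kept in edgeR with DESeq2's size factors (adjusted p = 0.043), the replicate number as a block (0.028) or library totals only (0.0497). With low counts kept in edgeR the adjusted p was 5.9e-06, but calls over all genes went from 265 higher and 130 lower to 1660 and 1303. The call was lost in edgeR with upper quartile scaling (adjusted p = 0.052) and when every library had to hold at least 10 counts (0.056). Leaving out a further library left a lone library in a group. The log2 fold change was then -0.96 without SRF-OE 2, -0.77 without SRF-OE 3, -0.84 without GFP 2 and -0.91 without GFP 3. The CArG box printed above stands at 1 of 4 listed starts, the one farthest downstream within the gene. Whether that start is used as a promoter in CMs was not tested, and counts per gene do not say which start the reads came from.

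Myoz2 lay lower by about as much, without passing the test. Myoz2 (chr3:123006206-123035015, minus strand) encodes calsarcin-1, which ties the phosphatase calcineurin to alpha-actinin. Its level was 587 and 388 CPM in SRF-OE 2 and SRF-OE 3, against 674, 840 and 975 CPM in GFP 1, GFP 2 and GFP 3. The groups did not overlap, and the library labelled GFP1 was the lowest of its group. As a log2 fold change this was -0.77 (SE 0.25, adjusted p = 0.35 with edgeR's quasi-likelihood test) and, without the library labelled GFP1, -0.89 (SE 0.23, adjusted p = 0.075). DESeq2 gave an adjusted p of 0.023 over 5 libraries and 0.00088 without the library labelled GFP1.

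The alpha-actinin crosslinker itself differed little. Actn2 (chr13:12269426-12340760, minus strand) encodes the sarcomeric alpha-actinin that ties actin filaments together in the Z-disc. It was at 4379 and 4786 CPM in SRF-OE 2 and SRF-OE 3, against 4915, 5050 and 5956 CPM in GFP 1, GFP 2 and GFP 3. The SRF-OE libraries were the lowest of the 5, but the gap between SRF-OE 3 and the library labelled GFP1 was smaller than the spread within either group. The fitted log2 fold change was -0.21 (SE 0.22, adjusted p = 0.65, edgeR) and, without that library, -0.26 (SE 0.20, adjusted p = 0.44).

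Ldb3 and Tcap, the next pair, had log2 fold changes within 1 SE of 0. Ldb3 (chr14:34526603-34588682, minus strand) encodes ZASP or Cypher, a PDZ and LIM protein that binds alpha-actinin. It was at 1517 and 1753 CPM in SRF-OE 2 and SRF-OE 3, against 1782, 1795 and 1802 CPM in GFP 1, GFP 2 and GFP 3. The GFP libraries lay close together, and SRF-OE 3 was just under them. In log2 terms the fold change was -0.13 (SE 0.17, adjusted p = 0.72, edgeR), and 0.052 with library totals only. Without the library labelled GFP1 it was -0.13 (SE 0.16, adjusted p = 0.63), and 0.096 with library totals only. Tcap (chr11:98383811-98384953, plus strand) encodes telethonin, the cap that joins the Z-disc ends of titin molecules. It was at 1243 and 803 CPM in SRF-OE 2 and SRF-OE 3, against 1098, 1128 and 1155 CPM in GFP 1, GFP 2 and GFP 3. The SRF-OE libraries were the highest and the lowest of the 5, so the groups overlapped. Its log2 fold change was -0.14 (SE 0.22, adjusted p = 0.77, edgeR), and 0.049 with library totals only and 0.13 without SRF-OE 3. Without the library labelled GFP1 it was -0.15 (SE 0.23, adjusted p = 0.70), and 0.078 with library totals only.

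Nexn was the only member with both SRF-OE libraries above every GFP library. Nexn (chr3:152236982-152266350, minus strand) encodes nexilin, an actin-binding protein of the Z-disc. It was at 405 and 419 CPM in SRF-OE 2 and SRF-OE 3, against 392, 299 and 383 CPM in GFP 1, GFP 2 and GFP 3. The margin over the library labelled GFP1 was small and GFP 2 was lower than the rest. The log2 fold change was 0.20 (SE 0.16, adjusted p = 0.56 with edgeR) and, without the library labelled GFP1, 0.28 (SE 0.16, adjusted p = 0.30).

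Both M-line members had negative log2 fold changes that did not pass edgeR's test, while DESeq2 without the library labelled GFP1 called both lower. Myom1 (chr17:71002633-71126856, plus strand) encodes myomesin-1, which bridges myosin filaments and titin at the M-line. It was at 817 and 767 CPM in SRF-OE 2 and SRF-OE 3, against 932, 1071 and 1439 CPM in GFP 1, GFP 2 and GFP 3. The groups did not overlap, and the library labelled GFP1 was the nearest to SRF-OE. For SRF-OE over GFP, the log2 fold change was -0.53 (SE 0.22, adjusted p = 0.36 with edgeR) and, without that library, -0.66 (SE 0.19, adjusted p = 0.091), where DESeq2 gave an adjusted p of 0.010 and edgeR with low counts kept 0.0010. The gene shares 207 exonic bases with Myl12a on the other strand, and the strand setting of the counting was not stated, so its count is uncertain to that extent. Myom2 (chr8:15057653-15133541, plus strand) encodes myomesin-2, or M-protein, a related crosslinker. It was at 903 and 564 CPM in SRF-OE 2 and SRF-OE 3, against 591, 1455 and 1090 CPM in GFP 1, GFP 2 and GFP 3. The library labelled GFP1 fell between the SRF-OE libraries, far from the other GFP libraries. As a log2 fold change this was -0.51 (SE 0.40, adjusted p = 0.55 with edgeR) over 5 libraries. Without the library labelled GFP1 it was -0.79 (SE 0.27, adjusted p = 0.13 with edgeR). There DESeq2 gave an adjusted p of 0.011 and edgeR with low counts kept 3.5e-05. Over all genes in those libraries, edgeR called 1303 lower with low counts kept and 130 lower with its filter.

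**Figure D2:**
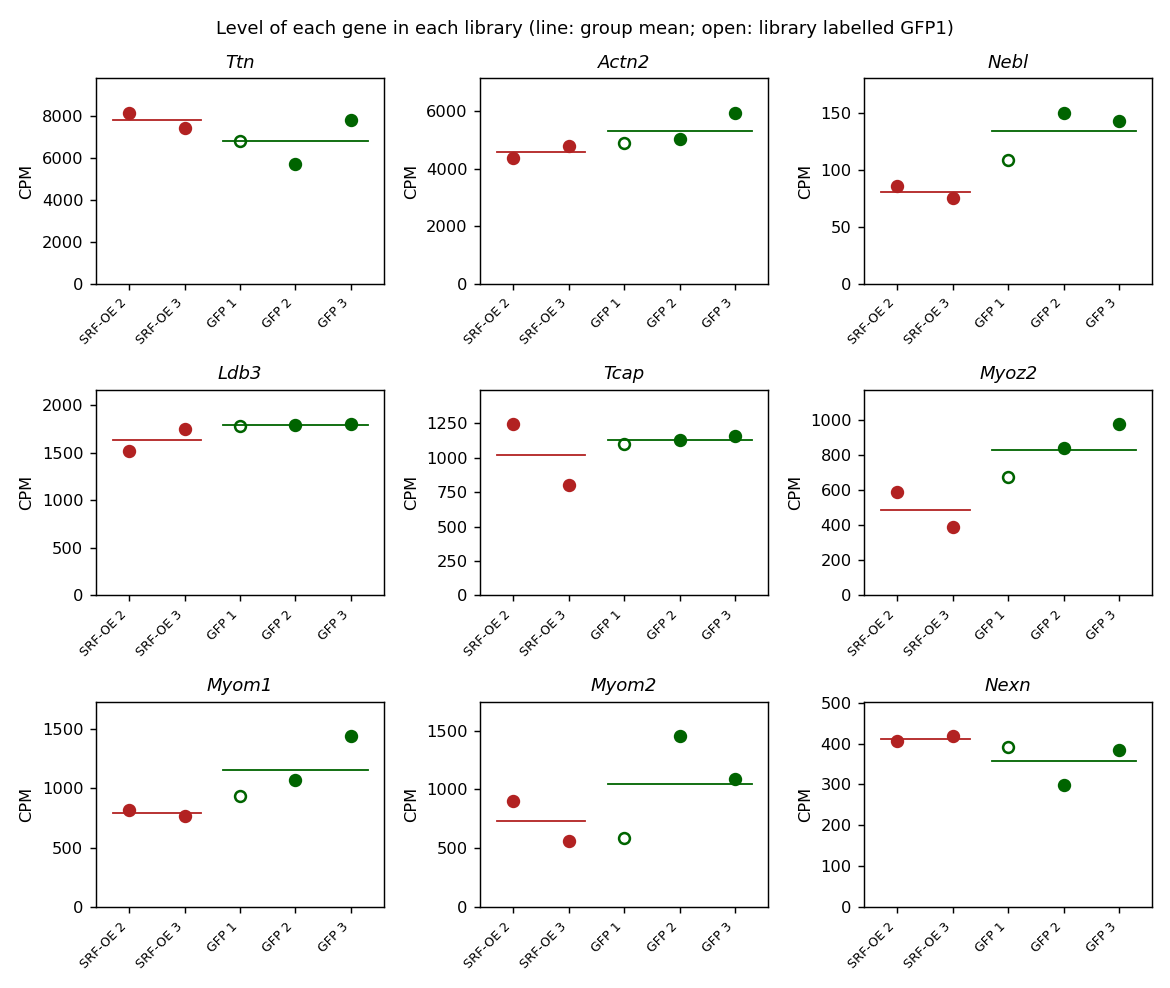
Each panel shows 1 gene, with CPM on the y axis from 0, a point for each of the 5 libraries, lines at the group means, and an open point for the library labelled GFP1. For Nebl and Myoz2 both SRF-OE points lie below all GFP points, for Tcap the SRF-OE points are the highest and lowest (1243 and 803 CPM), and for Myom2 the open point lies between the SRF-OE points.

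Ratios between members within a library need no scaling, and those of Nebl to Ttn and of Myoz2 and Myom1 to Actn2 were lower in SRF-OE. These ratios were not among the planned results. They set members with the lowest p over Ttn or Actn2, so they restate the fold changes above and add no separate evidence. For each 1000 Ttn reads there were 10.5 and 10.0 Nebl reads in SRF-OE 2 and SRF-OE 3, against 15.9, 26.1 and 18.2 in GFP 1, GFP 2 and GFP 3. For each 1000 Actn2 reads there were 134 and 81.0 Myoz2 reads in SRF-OE, against 137, 166 and 164 in GFP. Neither ratio overlapped between the groups, although for Myoz2 the library labelled GFP1 was close to SRF-OE 2. Myom1 reads per 1000 Actn2 reads were 187 and 160 in SRF-OE and 190, 212 and 242 in GFP. The 2 myomesins showed no shift against each other, with Myom2 over Myom1 per kb at 1.25 and 0.83 in SRF-OE and at 0.72, 1.54 and 0.86 in GFP.

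Between members, levels were compared as CPM per kb of the deposited gene length. The order of the medians over 5 libraries ran from Actn2 (1647) through Tcap (1190), Myoz2 (584), Ldb3 (296), Myom2 (182), Myom1 (166), Nexn (153) and Ttn (71.5) to Nebl (36.4). The ranges of neighbours overlapped for Ldb3 and Myom2, for Myom2 and Myom1 and for Myom1 and Nexn. Ranks 1 to 4, 8 and 9 were held by the same genes in each of the 5 libraries. The differences between groups thus left the order per kb at those ranks as it was. Tcap, whose product caps titin, stood far above Ttn in CPM per kb. Whether reads covered the much longer Ttn transcript as evenly as that of Tcap was not tested. The gap is therefore not read as a ratio of transcript numbers. The order depends on the lengths: with the annotated exons of GENCODE M21, Myoz2 (3423 bp in place of 1153 bp) had a median of 197 and came after Ldb3 at 292, and Nebl (15235 bp in place of 2980 bp) stayed last at 7.12.

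**Figure D3:**
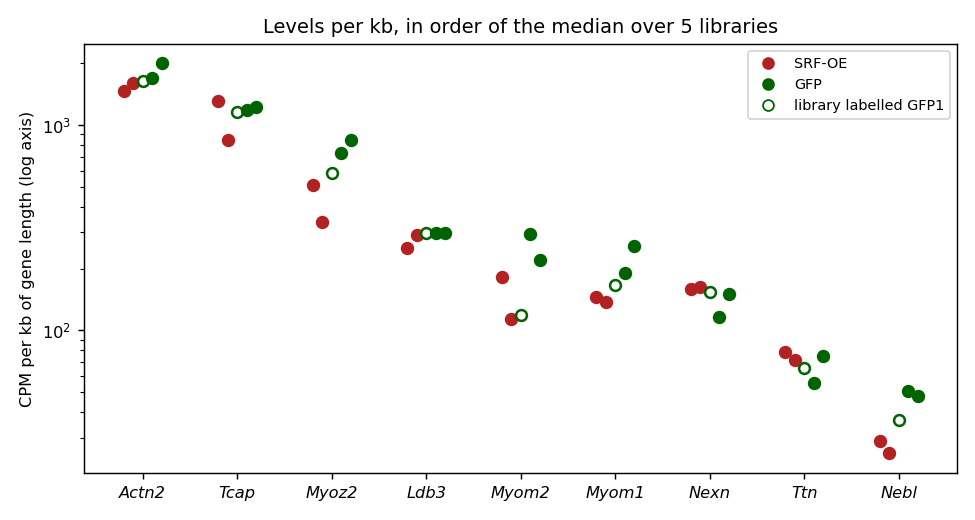
CPM per kb of the deposited gene length is on a log axis for the 9 genes, ordered by the median over 5 libraries, with a point per library and an open point for the library labelled GFP1. Actn2 and Tcap lie on top (medians 1647 and 1190) and Ttn and Nebl at the bottom (71.5 and 36.4), with Myom2, Myom1 and Nexn overlapping in between.

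Paralogs of the members, many of them best known from other muscles or from non-muscle cells, had mostly positive log2 fold changes. Of 15 paralogs 14 were tested, and 11 had positive log2 fold changes, with a median of 0.59 over 5 libraries and 0.68 without the library labelled GFP1. No paralog passed the test over 5 libraries (3 were higher and 1 lower at an unadjusted p under 0.05, beside 6.35% and 7.59% of all genes). Without that library 2 were called higher, where 1.98% of all genes were. Neb, which encodes the nebulin of skeletal muscle, rose by 2.14 on the log2 scale (SE 0.31, adjusted p = 0.047 with edgeR). Pdlim7, which encodes the PDZ and LIM protein enigma, rose by 2.55 (SE 0.38, adjusted p = 0.047 with edgeR). Both calls were lost with upper quartile scaling. Neb was at 27.3 and 48.5 CPM in SRF-OE 2 and SRF-OE 3, and at 24.4, 7.66 and 9.71 CPM in GFP 1, GFP 2 and GFP 3. Pdlim7 was at 200 and 432 CPM in SRF-OE, and at 192, 47.1 and 61.6 CPM in GFP. For both genes the library labelled GFP1 lay just under SRF-OE 2.

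The ratio of a member to its relative was lower in both SRF-OE libraries than in any GFP library for the 4 pairs computed. All 4 pairs used relatives with positive log2 fold changes in both fits. There were 3.14 and 1.54 Nebl reads per Neb read in SRF-OE 2 and SRF-OE 3, against 4.44, 19.6 and 14.7 in GFP 1, GFP 2 and GFP 3. Ldb3 reads per Pdlim7 read were 7.59 and 4.06 in SRF-OE, against 9.26, 38.1 and 29.2 in GFP. Neither ratio overlapped, and in both the library labelled GFP1 lay nearer to SRF-OE than to the other GFP libraries. Actn2 reads per read of Actn1, which encodes a non-muscle alpha-actinin, were 174 and 117 in SRF-OE, against 189, 307 and 345 in GFP. Per read of Actn4, the other non-muscle alpha-actinin, they were 17.2 and 14.0 in SRF-OE, against 17.7, 31.4 and 31.2 in GFP. Actn1 and Actn4 did not pass the test themselves (adjusted p = 0.075 and 0.067 with edgeR without the library labelled GFP1), and the ratios were chosen with these values known. Of the 14 tested paralogs 3 were negative, among them Pdlim5, another PDZ and LIM gene like Ldb3. Pdlim5 was at -0.48 over 5 libraries (SE 0.16, adjusted p = 0.35 with edgeR), and no ratio to it was computed.

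**Figure D4:**
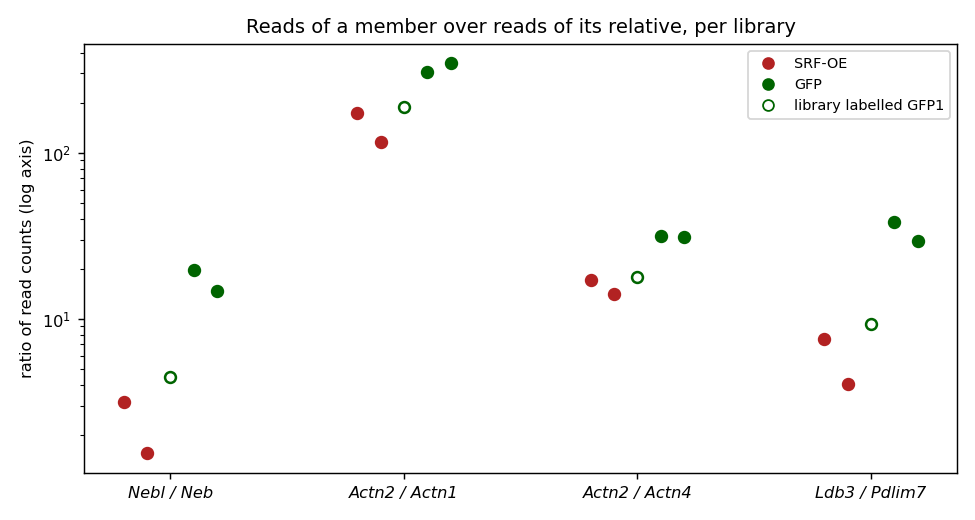
The ratio of read counts of a member over a relative is on a log axis for 4 pairs, with a point per library and an open point for the library labelled GFP1. In each pair both SRF-OE points lie lowest, the open point lies next, and GFP 2 and GFP 3 lie highest, as for Nebl over Neb with 1.54 and 3.14 in SRF-OE against 14.7 and 19.6.

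Genes whose products work with the members were described by lists, which were chosen with earlier results of these data known. The 4 lists of partners (other Z-disc, other M-band, titin-associated and paralogs) held 61 genes, of which 59 were tested. Over 5 libraries 0 were called higher and 0 lower, and 27 log2 fold changes were positive and 32 negative, with a median of -0.11 that turned to 0.084 with library totals only. At an unadjusted p under 0.05, 5 were higher and 12 lower, beside 6.35% and 7.59% of all genes, and DESeq2 called 1 higher and 7 lower, beside 1.02% and 19.7% of the genes it tested. Without the library labelled GFP1, 4 were called higher and 2 lower, beside 1.98% and 0.97% of all genes. The median was then -0.16, or 0.071 with library totals only. These 6 calls were lost with upper quartile scaling and when every library had to hold at least 10 counts, where 0 partner genes were called.

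The M-band list was the most one-sided of the partner lists. Of its 12 genes 11 had negative log2 fold changes, with a median of -0.41 over 5 libraries and -0.54 without the library labelled GFP1, although 0 passed the test in either fit (3 and 7 were lower at an unadjusted p under 0.05, beside 7.59% and 14% of all genes, and 0 higher). The 3 with the smallest p were Trim54, a ubiquitin ligase of the MuRF family, at -0.77 (SE 0.20), Fhl2, a LIM protein that binds titin, at -0.84 (SE 0.32), and Ckm, the muscle creatine kinase, at -0.84 (SE 0.33). Their adjusted p over 5 libraries was 0.35, 0.36 and 0.36 with edgeR. With library totals only, 11 of 12 again lay below the median of all genes, while 10 were negative over 5 libraries and 9 without the library labelled GFP1.

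The other Z-disc list was divided. Of 22 genes 12 were positive and 10 negative, with a median of 0.027 over 5 libraries and 0.074 without the library labelled GFP1. In the latter fit Synpo2, which encodes the actin-binding protein myopodin, fell by 0.82 on the log2 scale (SE 0.13, adjusted p = 0.048 with edgeR). It was at 75.7 and 79.6 CPM in SRF-OE 2 and SRF-OE 3 and at 112, 126 and 149 CPM in GFP 1, GFP 2 and GFP 3, a pattern without overlap.

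The titin-associated list held called genes in both directions without the library labelled GFP1. The 1 lower call was a myosin chaperone, and the 2 higher calls were genes of titin-binding proteins. Of 12 genes 11 were tested, 3 positive and 8 negative, with a median of -0.22 over 5 libraries and -0.32 without the library labelled GFP1. In the latter fit Unc45b, the myosin chaperone, fell by 1.17 on the log2 scale (SE 0.17, adjusted p = 0.047 with edgeR). Ankrd1, a stress-responsive ankyrin repeat protein that binds titin's I-band, rose by 1.49 (SE 0.26, adjusted p = 0.0499), and Fhl1, a LIM protein that also binds titin there, rose by 3.80 (SE 0.66, adjusted p = 0.0499). Fhl1 was at 704 and 2871 CPM in SRF-OE 2 and SRF-OE 3 and at 119 and 138 CPM in GFP 2 and GFP 3, but at 1731 CPM in the library labelled GFP1. Over 5 libraries, Fhl1 overlapped between the groups and had an adjusted p of 0.58.

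Thick and thin filament genes, the contractile proteins outside these structures, had 6 positive and 10 negative log2 fold changes among 16, with a median of -0.34 over 5 libraries and -0.41 without the library labelled GFP1. None was called in either fit (2 were higher and 0 lower at an unadjusted p under 0.05 over 5 libraries, beside 6.35% and 7.59% of all genes). The 3 with the smallest p were Tpm2, encoding beta-tropomyosin, at 1.15 (SE 0.42), Tnni1, the slow skeletal and fetal troponin I, at 1.24 (SE 0.46), and Mylk3, the cardiac myosin light chain kinase, at -0.51 (SE 0.23).

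**Figure D5:**
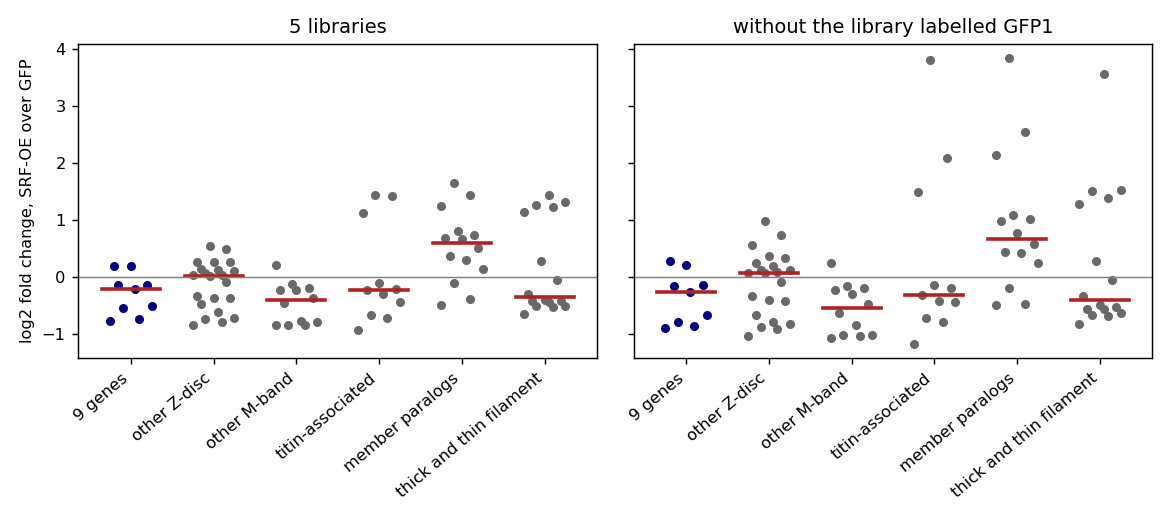
The y axis is the log2 fold change, SRF-OE over GFP, of each tested gene in the 9 members and 5 lists, with the fit of 5 libraries on the left and the fit without the library labelled GFP1 on the right; red lines are medians. The members' median lies under 0 (-0.21 and -0.26), the M-band median lower (-0.41 and -0.54), and the paralogs' median above 0 (0.59 and 0.68).

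The summed CM markers were lower in both SRF-OE libraries than in any GFP library. The defining genes of CMs were abundant: the 10 cardiomyocyte markers summed to 98061 to 112538 CPM in SRF-OE and 119020 to 175775 CPM in GFP, without overlap, with the library labelled GFP1 lowest in GFP. All 10 had negative log2 fold changes, with a median of -0.51 over 5 libraries and -0.65 without the library labelled GFP1. In these fits 0 were called, and 1 and 5 were lower at an unadjusted p under 0.05, beside 7.59% and 14% of all genes. With library totals only, 9 of 10 were negative. The members' median lay above that in both fits. Atp2a2, Pln and Ryr2, genes of calcium handling, had the smallest p among them, at -0.80, -0.66 and -0.51 over 5 libraries and -0.96, -0.78 and -0.64 without the library labelled GFP1. In these bulk libraries, fewer cells of a type and less RNA per cell cannot be told apart.

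Markers of other cell types summed to less than the CM markers in both groups. The 10 fibroblast markers summed to 462 to 926 CPM in SRF-OE and 334 to 500 CPM in GFP, or 334 to 393 CPM without the library labelled GFP1, where the groups did not overlap. All 10 were positive, led by Col1a2, Col1a1 and Col3a1, with a median log2 fold change of 0.80 over 5 libraries and 0.98 without that library. At an unadjusted p under 0.05, 5 and 9 of them were higher in those fits, beside 6.35% and 14.4% of all genes, and in the latter 10 of 10 did not overlap between the groups, beside 30.8%. Endothelial markers, all 10 positive, summed to 379 to 971 CPM in SRF-OE and 395 to 745 CPM in GFP, led by Egfl7, Esam and Tek, with a median of 0.42 over 5 libraries and 0.81 without the library labelled GFP1, and 0 were called in either fit (0 and 1 were higher at an unadjusted p under 0.05). Smooth muscle and pericyte markers summed to 913 to 1044 CPM in SRF-OE and 870 to 1039 CPM in GFP, with 8 of 10 positive and a median of 0.56 over 5 libraries and 0.98 without the library labelled GFP1. The 2 negative ones, Abcc9 at -0.37 and Smtn at -0.26 over 5 libraries, made up most of the sum, and Smtn was named after its values were seen. Of the list, Tagln rose by 2.92 on the log2 scale (SE 0.46, adjusted p = 0.047 with edgeR) without the library labelled GFP1. Ddr2 of fibroblasts and Tnnt3 of skeletal muscle, at means under 10 CPM and named after their values were seen, were also called higher in that fit. Leukocyte markers summed to 13.4 to 36.7 CPM in SRF-OE and 12.0 to 29.3 CPM in GFP, and of 6 tested 4 were positive over 5 libraries and 5 without the library labelled GFP1 (medians 0.38 and 0.97, 0 called). Skeletal muscle markers summed to 1523 to 2392 CPM in SRF-OE and 2451 to 4289 CPM in GFP. Most of it was Ckm, and Myot was the other at 10 CPM or more. Both genes are also in the partner lists above, and both were negative in both fits. Of 7 tested skeletal muscle markers 4 were positive over 5 libraries and 5 without the library labelled GFP1 (medians 0.67 and 0.45). Of the markers in the table none was at 0 in all libraries. Whether their reads came from other cells or from CMs was not tested, nor was any part of other cells in the members' differences.

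Finally, the genes whose levels ran closest to Nebl and Ttn over the 5 libraries were found among 8522 genes at a mean of 10 CPM or more, by the root mean square difference of centred log2 CPM. Nearest to Nebl were Fam69b (0.033), Ppm1l (0.034) and Rtn4ip1 (0.040). Rtn4ip1 was at 85.4 and 73.8 CPM in SRF-OE 2 and SRF-OE 3 and at 104, 143 and 147 CPM in GFP 1, GFP 2 and GFP 3, nearly the levels of Nebl. Nearest to Ttn were Bdp1 (0.018), Chd7 (0.038) and Sfswap (0.038).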

How the data were processed

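GFP+ CMs sorted at P14 were sequenced with SMART-Seq and Nextera libraries. The submitters' processing notes name CASAVA 1.8, STAR 2.5.3a and featureCounts of Subread 1.5.2 on mm10. The authors deposited raw counts per gene in 1 table, and settings for strand and multiply mapped reads are not given in the sources used here. Columns were assigned by name, and the column named for SRF-OE replicate 1, which held gene lengths, served only as length. As the columns are named, that library is not analysed here. The tests were planned for 6 libraries and used 5. No library was moved to another group by its Srf level.

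Counts were fitted over all genes with edgeR 4.0.16 under R 4.3.3 (filterByExpr, TMM, glmQLFit, glmQLFTest, Benjamini-Hochberg adjustment, cutoff 0.05). The standard error is the log2 fold change over the square root of F. The fits were tested on simulated counts. Alternatives were DESeq2 1.42.0, other scalings and filters, the replicate number as a block, and leaving out each library. Positions are from GENCODE M21 on GRCm38.

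The members and lists were chosen with earlier results of these data known. The genes named are the 9 members, Srf, from each list the genes called over all libraries or otherwise without the library labelled GFP1, or else the 3 with the smallest p, at a mean of 10 CPM or more, and the 3 nearest to Nebl and to Ttn. Actn1, Actn4, Pdlim5 and Myl12a were named after their values were seen.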

Additional observations from a re-analysis of the deposited data

How the results depend on the processing

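The limits are those of 5 libraries from 2 groups, with a library that goes against its label and with unknown settings of counting. Depth did not limit the members, whose lowest count was 1484. No setting called a member higher. Over 5 libraries, members called lower numbered 1 with DESeq2 (Myoz2) and 2 with the replicate block (Nebl and Myom2). They numbered 1 without the library labelled GFP1 (Nebl) and 0 without GFP 2 or without GFP 3. No SRF-OE library with number 1 was analysed, so the block took up the level of GFP 1. GFP 1 then added nothing to the difference between groups. With the block, the Nebl log2 fold change was -0.87 over 5 libraries and -0.86 without GFP 1. Block results over 5 libraries are therefore in effect results without GFP 1. Partner genes called higher and lower numbered 1 and 7 with DESeq2 and 8 and 5 with the replicate block, and with 1 library left out 0 to 4 higher and 0 to 2 lower. All genes called higher and lower numbered 11 and 213 with DESeq2 and 582 and 432 with the block, and with 1 library left out 0 to 265 and 0 to 130. The Srf log2 fold change was 2.78 with the block and ranged from 1.13 to 2.87 with 1 library left out. The members' median was -0.021 with library totals only, a setting added after the data were seen, and ranged from -0.49 to -0.13 with 1 library left out. The Ldb3 log2 fold change was 0.052 and Tcap 0.049 with library totals only, and Tcap was 0.13 without SRF-OE replicate 3.

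Without the library labelled GFP1, members called lower numbered 4 in DESeq2 and 4 when low counts were kept (Nebl, Myoz2, Myom1 and Myom2 in both). They numbered 0 both after upper quartile scaling and under a minimum of 10 counts in every library. Leaving out a further library left 1 library in a group, so the calls of those fits rest on the spread within the other group. Partner genes called higher and lower numbered 8 and 13 with DESeq2, 12 and 17 when low counts were kept, 0 and 0 after upper quartile scaling and under the minimum of 10 counts, and 8 and 5 with the replicate block. With library totals only 7 were higher, and leaving out a further library gave 0 to 18 higher and 0 to 17 lower. All genes called higher and lower numbered 853 and 833 with DESeq2, 88 and 9 with upper quartile scaling, 1660 and 1303 with low counts kept, 55 and 9 with at least 10 counts, 547 and 392 with the block and 731 and 61 with library totals only. DESeq2's size factors gave 206 lower, and leaving out a further library gave 0 to 1640 higher and 0 to 1638 lower. The Srf log2 fold change was 2.89 with at least 10 counts (adjusted p = 0.050 with edgeR) and 2.24 to 3.30 with a further library left out. The members' median was -0.028 with library totals only and -0.51 to -0.15 with a further library left out. The Ldb3 log2 fold change was 0.096 and that of Tcap 0.078 with library totals only, Tcap ranged from -0.51 to 0.12 (without SRF-OE replicate 3) with a further library left out, and Ttn ranged from -0.018 (without GFP replicate 2) to 0.43 with a further library left out. The causes were not tested.

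The replicate numbers in the titles do not name a shared litter or day. Deviations from the group means correlated across genes at 0.40 for number 2 and -0.074 for number 3 over 5 libraries, and at 0.22 over the 4 libraries, so the numbers were not taken as pairs and the block is given only here.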
